A study of Mus musculus with 6 samples.

Results

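The genes of macroautophagy and mitophagy were examined in bulk RNA-seq of mouse lung group 2 innate lymphoid cells (ILC2s), the tissue lymphocytes that secrete IL-5 and IL-13 in type 2 inflammation. The set held 41 genes, named for their roles in autophagy initiation, lipid supply, ATG8 conjugation, cargo recognition, mitophagy and transcriptional control. All 41 were among the 17831 genes of the deposited table, and all 41 passed the filter on low counts that left 13623 genes to test. WT libraries came from mice labelled CB57BL/6 (n = 3), and SIRPa KO libraries from mice labelled SIRPalphatm1Ynliu/J (n = 3), the SIRPα knockout strain (SIRPα is an inhibitory receptor for CD47). Mice of both genotypes were 6 to 8 weeks old and received 0.5 µg of rmIL-33 intranasally for 3 days. On day 4 lung ILC2s were sorted as CD45+ lineage- CD127+ ST2+ cells and kept in medium holding rmIL-2 and rmIL-7 (10 ng/mL of each) for 18 h or 24 h depending on the passage of the study, so both groups had been exposed to IL-33 and cytokines. Every library was made from 10 pg of RNA.

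In autophagy, the ULK kinase complex starts a membrane that a class III PI3-kinase marks with PI3P. ATG2 and ATG9 feed it lipid, and a ubiquitin-like cascade attaches ATG8 proteins (LC3 and GABARAP) to it. Receptors that bind ATG8 proteins bring cargo in, which includes damaged mitochondria in mitophagy, and the closed autophagosome fuses with lysosomes. In ILC2s, autophagy and mitochondrial turnover are known for shaping fuel use and cytokine output.

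The libraries held 13980499 to 19051507 reads (the WT median was 15301599 and the SIRPa KO median 16096742). Sirpa itself had 149, 96 and 73 reads in the WT libraries and 48, 85 and 28 in the SIRPa KO libraries (adjusted p = 0.115, edgeR quasi-likelihood test), so the targeted gene was still counted in every SIRPa KO library. The part of the gene that the allele removes is not given in the sources used here, so these reads do not check the genotype labels. Scaled to library size, it was at 4.83 to 8.57 CPM in WT and 1.74 to 4.46 CPM in SIRPa KO. WT replicate 3 stood apart from the other WT libraries, with a chi-square per degree of freedom of 73.9 and 61.4 against them, where WT replicates 1 and 2 gave 28.3 and the SIRPa KO pairs 8.07 to 11.5. Some libraries share a code number in their labels, namely 37 and 37V1 for WT replicates 1 and 2, and 44 and 44V1 for SIRPa KO replicates 2 and 3. The series' own text speaks of duplicates, where 3 libraries a group are given, and no source used here says whether a shared code means shared animals. Some marker genes of other cells were alike within a code, and others were not. The airway gene Scgb1a1 had 1 read in SIRPa KO replicate 1 and 1073 and 981 in replicates 2 and 3, Ighm 98 against 932 and 789, Cpa3 118 against 15 and 14, and Krt8 had 108 and 113 reads in WT replicates 1 and 2 and 0 in WT replicate 3. By contrast, Cdh1 had 38 reads in SIRPa KO replicate 1 and 121 and 30 in replicates 2 and 3, and Itgax 125 against 186 and 71. Adgre1 had 74 and 15 reads in WT replicates 1 and 2 and 113 in WT replicate 3, and Itgam 8 and 56 against 20. Over all genes, SIRPa KO replicates 1 and 2 differed no more (8.07) than replicates 2 and 3 (10.2). If a code marks shared animals, n = 3 counts 2 independent samples a group. As given, the p-values measure only the spread between these libraries, which may be partly technical. All 14 ILC2 markers were tested, of which Ptprc, Il2ra and Il5 rose and Id2 (log2 fold change -0.65, adjusted p = 0.0154, edgeR) and Thy1 (-2.06, adjusted p = 0.0139) fell. After length and GC correction Id2 (adjusted p = 0.139) and Ptprc (adjusted p = 0.0672) did not pass, while Il13 rose (0.72, adjusted p = 0.00747) and Rora fell (-0.55, adjusted p = 0.0158). Gata3 averaged 946 CPM in WT and 1012 CPM in SIRPa KO. The 6 B cell markers summed to 216 to 479 CPM (counts scaled to the library size, with TMM factors) in WT and 23.1 to 84.6 CPM in SIRPa KO. Of these, 5 fell, or 2 after length and GC correction. The 12 macrophage markers summed to 45.2 to 137 CPM in WT and 86.9 to 131 CPM in SIRPa KO, with the called gene Itgam at 0.46 to 3.98 CPM in WT and 9.33 to 13.3 CPM in SIRPa KO. After the correction 0 macrophage markers were called. C1qa, C1qb and C1qc had 0 reads in every WT library and 0 to 11 in the SIRPa KO libraries, while Marco had 98 reads in WT replicate 3, 0 in the other WT libraries and 9 to 18 in SIRPa KO. The 5 T cell markers summed to 18.3 to 22.1 CPM in WT and 4.67 to 5.37 CPM in SIRPa KO, and Cd3g fell. Of 7 epithelial and endothelial markers (68.7 to 99.5 CPM in WT and 49.2 to 117 CPM in SIRPa KO), Epcam fell and Pecam1 rose. The 4 basophil and mast cell markers summed to 7.07 to 20.8 CPM in WT and 0.868 to 10.4 CPM in SIRPa KO. The part of these cells in the results below was not tested.

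Of the 41 genes, 2 were called higher in SIRPa KO ILC2s and 5 lower, at an adjusted p under 0.05 over all 13623 genes. Over all genes tested, 5.94% were called higher and 5.81% lower, 11.7% in all, against 17.1% of the 41. Scaled by upper quartile factors, edgeR called 1 of the 41 higher and 7 lower, beside 1713 of all 13623 genes in either direction. The genes that fell with TMM were the ATG8 genes Gabarapl2, Gabarap and Map1lc3b, the ULK complex subunit gene Atg101, and Tfeb. Those that rose were the lipid transfer gene Atg2b and the conjugating enzyme gene Atg3. The median log2 fold change of the 41 genes was 0.04 (-0.16 after the correction described below), beside -0.03 for all genes tested, and 23 of the 41 had a value above 0. For 23 of the 41 genes the libraries of the groups were fully separated, 11 higher and 12 lower, where 42.8% of all genes tested were separated in this way (21.6% higher and 21.2% lower). After that correction, for length and GC content, 14 of the 41 were separated, or 34.1%, beside 34.4% of all genes. Once library counts were adjusted for the length and GC content of transcripts, edgeR called 0 of the 41 higher, with 3 at an unadjusted p under 0.05 in that direction, and 4 lower. Of all genes, 3.73% were then called higher and 4.29% lower, 8.02% in all. Their share at an unadjusted p under 0.05 with the correction is not given here. Of the 7 genes called without the correction, Gabarapl2, Gabarap and Map1lc3b were called with it, and Bnip3l was added. Without the correction the edgeR count of genes at an unadjusted p under 0.05 was 17 of 41 (32.0% of all genes), and DESeq2 called 7 higher and 8 lower, where it called 14.9% of all genes higher and 12.0% lower, 26.9% in all.

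**Figure D1:**
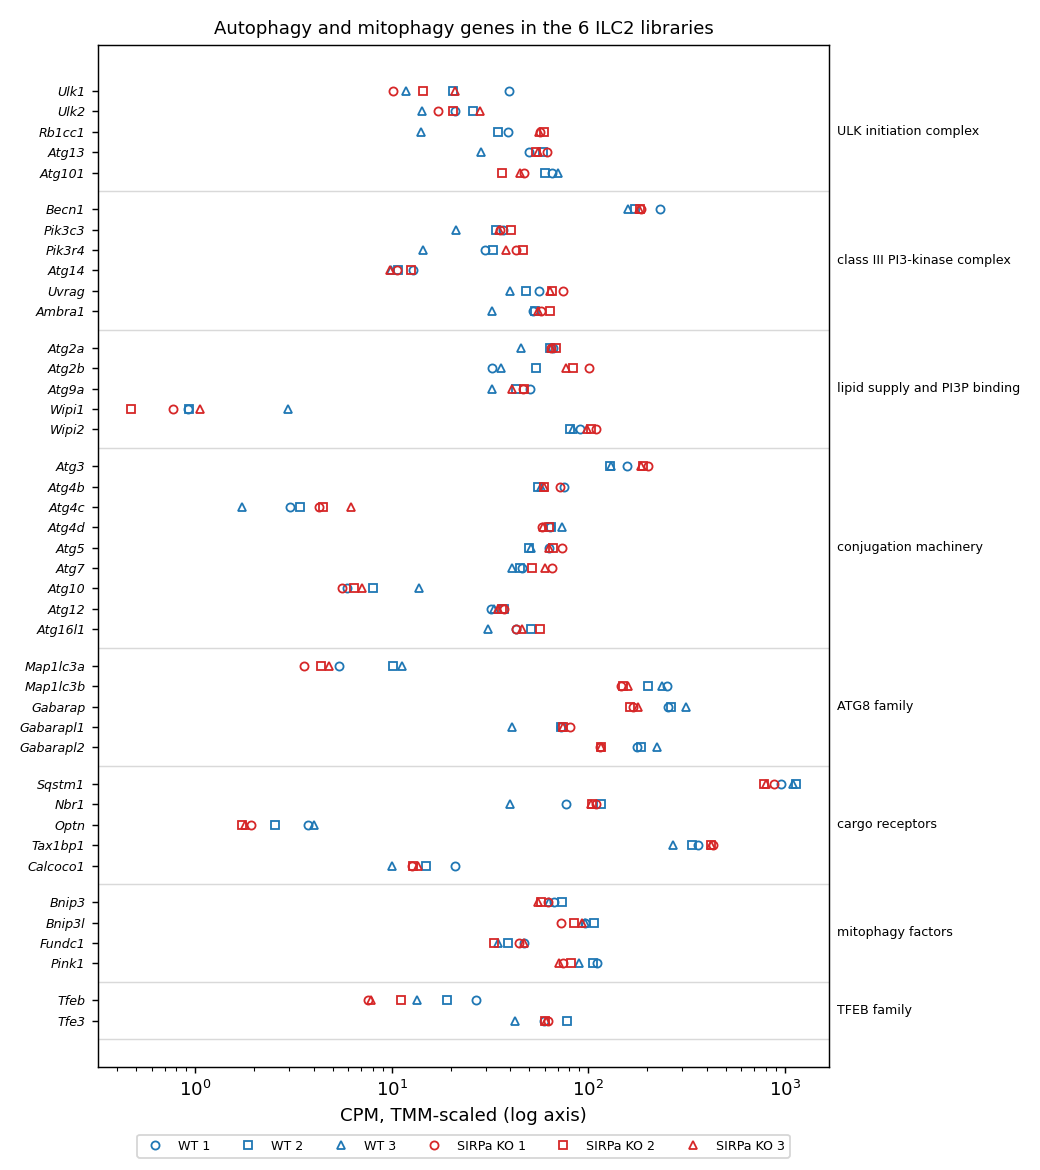
Level of each of the 41 genes in each library, in CPM with TMM scaling on a log axis, grouped by role. Blue marks the WT libraries and red the SIRPa KO libraries, with 1 marker shape per replicate. Gabarap and Gabarapl2 show the SIRPa KO libraries below all WT libraries, and WT replicate 3 lies low for genes such as Rb1cc1 and Nbr1.

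The ATG8 genes, which encode the ubiquitin-like proteins that are coupled to autophagosome membranes, held 3 of the 7 calls. The sequence just before the starts of Gabarapl2, Map1lc3b and Gabarapl1 is shown, with that of Atg3 and Atg2b, the genes that rose. The sequences of Atg101 and Tfeb, which fell, are not shown. The table of RefSeq promoters on GRCm38.p6 matched 34 of the 41 genes. Only the part of the 250 bases before the RefSeq start that lies outside the exons of the gene in GENCODE is printed. For Gabarap such exons cover 227 of the 250 bases, and none is shown. Capitals mark ACGTG on either strand (written CACGT on the other), which is also CACGTG without its first base. CACGTG is the E-box bound by TFEB and related factors.
Gabarapl2, chr8:111940453-111940702, plus strand: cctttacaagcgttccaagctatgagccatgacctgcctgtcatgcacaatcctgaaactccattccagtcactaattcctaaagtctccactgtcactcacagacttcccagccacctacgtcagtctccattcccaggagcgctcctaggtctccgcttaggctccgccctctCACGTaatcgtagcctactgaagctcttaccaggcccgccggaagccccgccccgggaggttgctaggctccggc
Map1lc3b, chr8:121590188-121590360, plus strand: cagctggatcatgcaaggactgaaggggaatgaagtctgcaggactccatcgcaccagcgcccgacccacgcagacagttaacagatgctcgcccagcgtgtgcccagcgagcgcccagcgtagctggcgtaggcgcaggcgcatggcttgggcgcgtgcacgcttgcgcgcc
Gabarapl1, chr6:129532942-129533159, plus strand: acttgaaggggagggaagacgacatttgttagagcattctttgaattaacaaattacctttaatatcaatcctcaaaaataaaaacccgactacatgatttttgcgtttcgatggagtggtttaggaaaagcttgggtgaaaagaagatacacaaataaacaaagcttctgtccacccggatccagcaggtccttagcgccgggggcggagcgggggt
Atg3, chr16:45158579-45158784, plus strand: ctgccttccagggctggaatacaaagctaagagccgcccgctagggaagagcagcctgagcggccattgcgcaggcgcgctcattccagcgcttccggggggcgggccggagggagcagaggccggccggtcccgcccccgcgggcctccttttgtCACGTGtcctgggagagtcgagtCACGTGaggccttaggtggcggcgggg
Atg2b, chr12:105685242-105685491, minus strand: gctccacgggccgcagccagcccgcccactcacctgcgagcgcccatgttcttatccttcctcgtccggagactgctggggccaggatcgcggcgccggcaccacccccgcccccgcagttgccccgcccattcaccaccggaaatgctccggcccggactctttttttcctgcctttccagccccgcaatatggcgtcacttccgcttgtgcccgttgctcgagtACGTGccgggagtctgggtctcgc

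In the whole 250-base windows, CACGTG was found for Atg3, Atg5, Atg7 and Bnip3, or 4 of the 34 matched genes. That was 10.0% of their 40 promoters, beside 6.02% of all 32851 promoters and 8.41% of those of tested genes. ACGTG on either strand was found for 13 of the 34 genes, in 32.5% of their promoters, beside 16.57% of all promoters and 22.02% of those of tested genes. Among the genes called without correction, ACGTG was found for Gabarap, Gabarapl2 and Atg101, which fell, and for Atg2b and Atg3, which rose. It was not found for Map1lc3b and Tfeb, which fell. These are matches of letters in short windows, and a window without one says only that the letters are not in it. Any link between the letters and the changes was not tested.

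Gabarap (ENSMUSG00000018567.14, chr11:69991143-69994951, mm10) was the second most abundant of the 41 genes per length in WT. It stood at 256, 264 and 314 CPM in the WT libraries and 168, 164 and 179 CPM in the SIRPa KO libraries, with every SIRPa KO library below every WT library. The means were 278 ± 31.2 CPM and 170 ± 8.10 CPM (SD, n = 3), a log2 fold change of -0.71 (SE 0.12, adjusted p = 0.0163, edgeR). Gabarapl2 (ENSMUSG00000031950.7, chr8:111940703-111953612), which also works in Golgi traffic, measured 178, 185 and 223 CPM in WT and 114, 116 and 116 CPM in SIRPa KO. Here too no library of one group reached the other, and the log2 fold change was -0.76 (SE 0.12, adjusted p = 0.0157, edgeR). Map1lc3b (ENSMUSG00000031812.16, chr8:121590361-121598760), the LC3 gene whose lipidated protein is the usual autophagosome marker, measured 251, 201 and 237 CPM in WT and 147, 149 and 160 CPM in SIRPa KO. The log2 fold change was -0.59 (SE 0.12, adjusted p = 0.0257, edgeR), again without overlap. After length and GC correction the log2 fold changes were -0.47 for Gabarap (adjusted p = 0.0167, edgeR), -0.77 for Gabarapl2 (adjusted p = 0.00778) and -0.56 for Map1lc3b (adjusted p = 0.0235). The transcript used for Map1lc3b has 1 exon and 2633 bases, where those of the other ATG8 genes have 4 exons. Its level per length and its corrected values rest on that transcript.

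The other ATG8 genes did not pass in edgeR with all 6 libraries. Map1lc3a was called lower by DESeq2 (adjusted p = 0.0326) and by edgeR without WT replicate 1 (adjusted p = 0.0423). Gabarapl1, the closest relative of Gabarap, measured 72.6, 72.4 and 41.1 CPM in WT and 81.1, 74.7 and 74.1 CPM in SIRPa KO, for a log2 fold change of 0.30 (SE 0.22, adjusted p = 0.371, edgeR). WT replicate 3 was the library that set the low WT mean, and without it the log2 fold change was 0.09. After length and GC correction it was 0.43 (adjusted p = 0.292), with the groups separated. Its exons overlap those of 1700101I11Rik on the other strand by 377 bases. Map1lc3a was scarce, with 5.41, 10.2 and 11.3 CPM in WT and 3.58, 4.36 and 4.78 CPM in SIRPa KO, and its log2 fold change of -1.07 had an adjusted p of 0.0791 (edgeR) before correction. After correction it was -0.38 (adjusted p = 0.529). Per length, the 5 ATG8 genes together measured 435, 431 and 488 reads per kb of transcript and CPM-scaled library (RPKM) in the WT libraries and 296, 292 and 308 in the SIRPa KO libraries. This sum and the shares of it were taken without the length and GC correction. Gabarapl1 made up 9.16%, 9.23% and 4.63% of that sum in the WT libraries and a mean of 14.1% ± 0.911 (SD, n = 3) in SIRPa KO, while Map1lc3b made up 19.3% ± 2.24 in WT and 19.3% ± 0.461 in SIRPa KO (SD, n = 3). With 3 libraries against 3, the 2-sided exact permutation test cannot go below 0.1. That was its value for the sum and for the shares of Gabarapl1, Gabarap and Gabarapl2, so it cannot decide whether they differ. The sum includes the 3 genes called lower, and the share of Gabarapl1 also rises when the other genes in the sum fall.

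**Figure D2:**
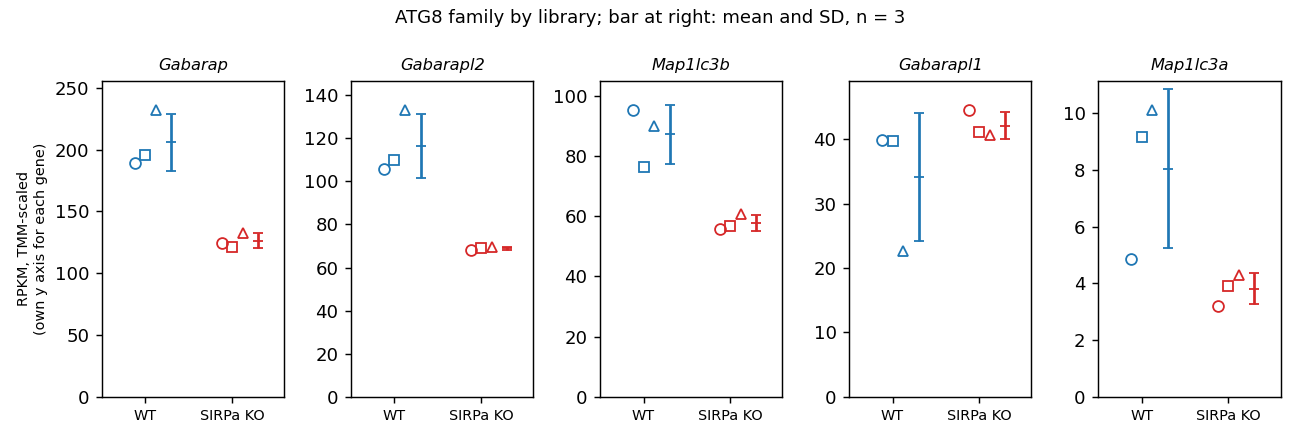
Level of each ATG8 gene in each library, in RPKM (a separate axis for each gene, all starting at 0), with the mean and SD (n = 3) beside the libraries of each group. Gabarap, Gabarapl2 and Map1lc3b lie lower in all SIRPa KO libraries, and Gabarapl1 lies above the WT libraries.

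Upstream of conjugation, the ULK complex held 1 call by edgeR among 5 genes, and DESeq2 called Rb1cc1 as well. Atg101 (ENSMUSG00000037204.7, chr15:101284272-101290945), which stabilises ATG13, measured 65.6, 60.4 and 69.8 CPM in WT and 47.2, 36.4 and 44.7 CPM in SIRPa KO. The groups did not overlap, and the log2 fold change was -0.61 (SE 0.15, adjusted p = 0.0423, edgeR). After length and GC correction it was -0.13 (adjusted p = 0.618), with overlapping groups. Rb1cc1, the gene of the scaffold FIP200, measured 39.2, 34.8 and 14.1 CPM in WT and 56.8, 59.7 and 55.9 CPM in SIRPa KO, for a log2 fold change of 0.97 (SE 0.34, adjusted p = 0.0957, edgeR). It was 0.64 without WT replicate 3 (adjusted p = 0.0127) and 0.38 after length and GC correction (adjusted p = 0.346). Ulk1, the kinase gene, spread widely within groups, at 39.7, 20.5 and 11.8 CPM in WT and 10.2, 14.4 and 20.9 CPM in SIRPa KO (log2 fold change -0.67, SE 0.45, adjusted p = 0.336, edgeR), and its log2 fold change was -0.09 without WT replicate 1. Its groups overlapped, as did those of Ulk2 and Atg13.

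None of the 6 class III PI3-kinase genes was called by edgeR without correction, where 2 had an unadjusted p under 0.05, and DESeq2 called Uvrag. Becn1, the Beclin 1 gene that scaffolds the complex, measured 233, 174 and 159 CPM in WT and 185, 184 and 181 CPM in SIRPa KO, with a log2 fold change of -0.04 (SE 0.15, adjusted p = 0.869, edgeR). After length and GC correction it was -0.48 (SE 0.12, adjusted p = 0.0543), with the groups separated. Its exons overlap those of Cntd1 on the other strand by 2247 bases, and no source used here says whether reads were counted by strand. Pik3r4, the regulatory subunit gene of the complex, measured 29.7, 32.6 and 14.4 CPM in WT and 42.7, 46.6 and 38.2 CPM in SIRPa KO (log2 fold change 0.74, SE 0.29, adjusted p = 0.131, edgeR; 0.46 without WT replicate 3). Its groups did not overlap, and the other 4 genes ranged between these values.

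Among the 5 genes of lipid supply and PI3P binding, Atg2b (ENSMUSG00000041341.10, chr12:105616136-105685211) rose. It measured 32.4, 54.4 and 36.2 CPM in WT and 101, 83.3 and 77.5 CPM in SIRPa KO. Every SIRPa KO library was higher than every WT library, with a log2 fold change of 1.09 (SE 0.22, adjusted p = 0.0252, edgeR). Corrected for length and GC content it was 0.65 (adjusted p = 0.0806). The transcript is 7546 bases long, the second longest after Rb1cc1 of the 41 genes, and overlaps Gskip by 383 bases on the other strand. Wipi1, which binds PI3P, was near the floor, at 0.920, 0.924 and 2.98 CPM in WT and 0.767, 0.472 and 1.05 CPM in SIRPa KO (log2 fold change -1.07, SE 0.67, adjusted p = 0.306, edgeR), and was -0.26 without WT replicate 3. DESeq2 also called Wipi2.

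The 9 genes of the conjugation machinery held 1 call by edgeR, and DESeq2 called Atg7 as well (adjusted p = 0.0196). Atg3 (ENSMUSG00000022663.3, chr16:45158785-45188538), the E2-like enzyme that passes ATG8 proteins to phosphatidylethanolamine, measured 158, 129 and 130 CPM in WT and 201, 190 and 186 CPM in SIRPa KO. No libraries of the groups overlapped, and the log2 fold change was 0.47 (SE 0.12, adjusted p = 0.0457, edgeR), or 0.33 after correction (adjusted p = 0.0873). Its call was also lost with upper quartile factors (adjusted p = 0.0755). Atg4c, a protease that trims ATG8 proteins, had the highest log2 fold change of the group, 0.87 (SE 0.39, adjusted p = 0.167, edgeR), at 3.05, 3.41 and 1.72 CPM in WT and 4.28, 4.46 and 6.20 CPM in SIRPa KO. Atg10, the E2-like enzyme of ATG12, had the lowest, -0.54 (SE 0.35, adjusted p = 0.319, edgeR), at 5.92, 8.04 and 13.8 CPM in WT and 5.56, 6.45 and 7.07 CPM in SIRPa KO, and was -0.12 without WT replicate 3. Of the 9 genes, 7 had a log2 fold change above 0, or 5 after correction.

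Cargo receptors tether cargo to ATG8 proteins. None of the 5 was called in the main edgeR fit, although 3 had an unadjusted p under 0.05. That fit used all 6 libraries, TMM factors and the filter that left 13623 genes, without correction. Sqstm1, the p62 gene and the most abundant of the 41 genes per length in both groups, measured 962, 1141 and 1104 CPM in WT and 885, 785 and 800 CPM in SIRPa KO. The groups did not overlap, and the log2 fold change of -0.38 (SE 0.10) had an adjusted p of 0.0522 (edgeR). After correction it was -0.24 (adjusted p = 0.139), with overlapping groups, and edgeR called it without WT replicate 1 (adjusted p = 0.0437), without WT replicate 3 (0.0384), with upper quartile factors (0.0388) and with a stricter filter on low counts (0.0422). Tax1bp1, which binds ubiquitinated cargo, measured 363, 338 and 271 CPM in WT and 433, 421 and 420 CPM in SIRPa KO, with a log2 fold change of 0.39 (SE 0.13, adjusted p = 0.0796, edgeR) that was 0.02 after correction. edgeR called it without WT replicate 3, at 0.28 (adjusted p = 0.0213). Nbr1 had the highest log2 fold change of the group, 0.44 (SE 0.33, adjusted p = 0.387, edgeR), with WT libraries at 77.4, 116 and 40.1 CPM and SIRPa KO libraries at 109, 104 and 103 CPM. It was 0.13 without WT replicate 3 and 0.08 after correction. Optn, a receptor in mitophagy, had the lowest, -0.92 (SE 0.39, adjusted p = 0.146, edgeR), with WT libraries at 3.74, 2.56 and 4.04 CPM and SIRPa KO libraries at 1.92, 1.73 and 1.80 CPM. DESeq2 called Sqstm1 and Tax1bp1.

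No mitophagy factor was called in the main edgeR fit, where 1 of 4 had an unadjusted p under 0.05, and DESeq2 called Pink1. Pink1, the kinase gene that marks depolarised mitochondria, measured 111, 106 and 90.0 CPM in WT and 74.6, 81.9 and 70.8 CPM in SIRPa KO, without overlap (log2 fold change -0.43, SE 0.13, adjusted p = 0.0727, edgeR). It was -0.24 after correction (adjusted p = 0.264), with overlapping groups, and edgeR called it without WT replicate 3 (adjusted p = 0.0153), with upper quartile factors (0.0338) and with a stricter filter on low counts (0.0466). Bnip3l, the gene of the outer membrane receptor NIX, measured 96.7, 107 and 96.7 CPM in WT and 72.5, 84.6 and 92.8 CPM in SIRPa KO. Its log2 fold change was -0.27 (SE 0.14, adjusted p = 0.212, edgeR) before correction and -0.64 (SE 0.13, adjusted p = 0.0306) after it, the only gene of the 41 called with the correction alone. Bnip3 measured 66.8, 73.7 and 63.4 CPM in WT and 62.6, 57.3 and 55.4 CPM in SIRPa KO (log2 fold change -0.22, SE 0.13, adjusted p = 0.288, edgeR). It is uncertain, since 94.2% of its transcript matches AC160336.1 at 95% identity or more, and reads could be split between them. The copy was given 21 to 33 reads in a library, beside 894 to 1161 for Bnip3. Fundc1 measured 47.2, 38.8 and 34.8 CPM in WT and 44.2, 33.2 and 47.0 CPM in SIRPa KO, with overlapping groups (log2 fold change 0.04, SE 0.19, adjusted p = 0.901, edgeR).

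Tfeb (ENSMUSG00000023990.18, chr17:47737030-47792419), the transcription factor of autophagy and lysosome genes, fell. It measured 26.9, 19.1 and 13.4 CPM in WT and 7.61, 11.1 and 7.88 CPM in SIRPa KO, with all SIRPa KO libraries lower. The log2 fold change was -1.16 (SE 0.30, adjusted p = 0.0471, edgeR), or -0.88 after correction, where the groups overlapped (adjusted p = 0.102). Without WT replicate 3 it was -1.36 (adjusted p = 0.0132), or -1.12 with the correction (adjusted p = 0.0297). Its relative Tfe3 measured 59.6, 78.0 and 42.5 CPM in WT and 62.2, 60.0 and 61.1 CPM in SIRPa KO (log2 fold change 0.03, SE 0.21, adjusted p = 0.946, edgeR).

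**Figure D3:**
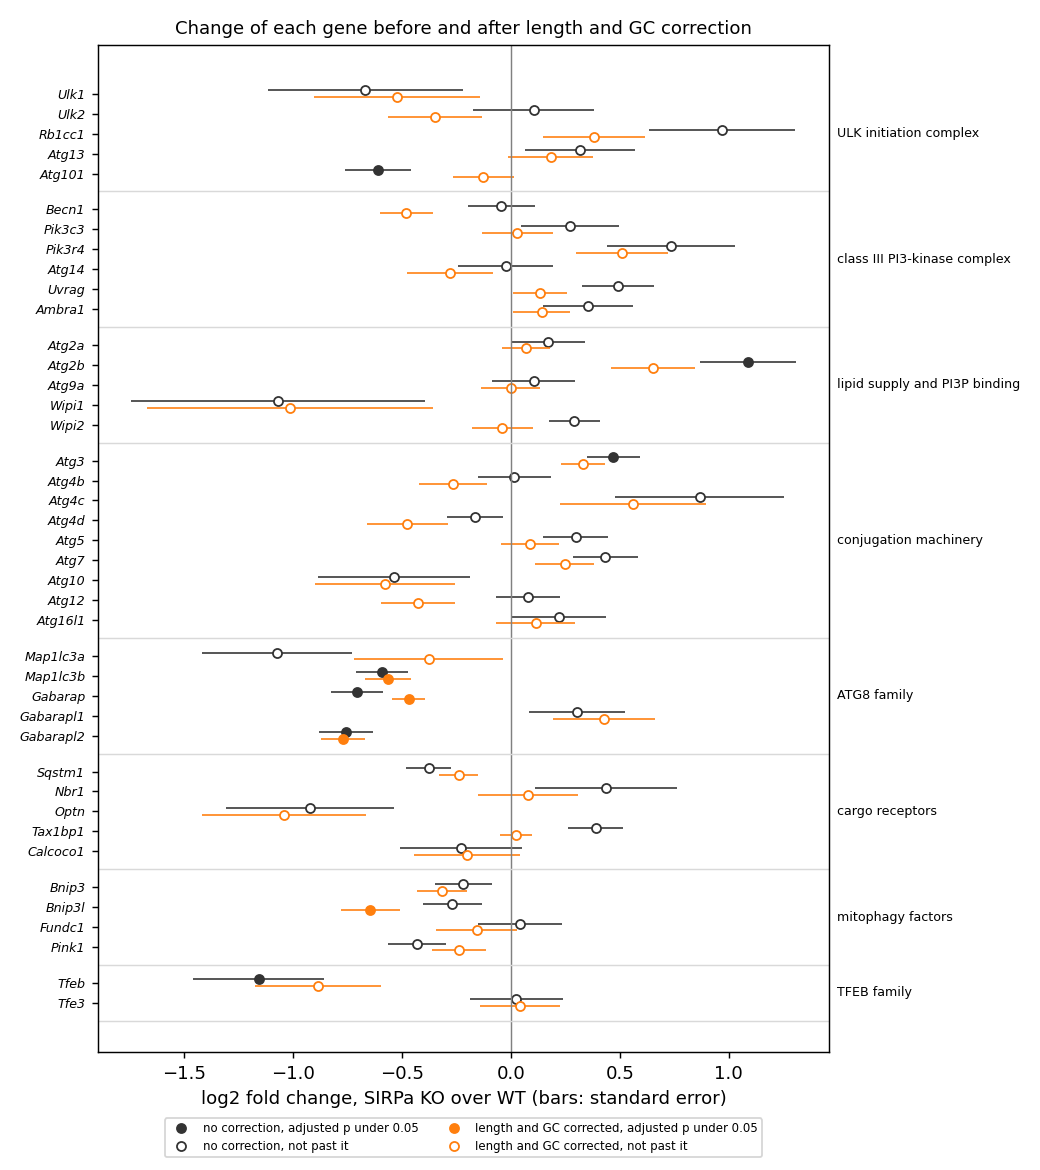
The log2 fold change of each gene in SIRPa KO over WT, with its standard error, without correction (black) and after length and GC correction (orange), grouped by role. Filled points have an adjusted p under 0.05 (edgeR), which 7 genes had without the correction and 4 with it.

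The members' fold changes varied with the length of their transcripts, as did those of all genes. Among genes of at least 3 on the average log2 CPM scale, the median log2 fold change went from -0.56 in the shortest length decile (median length 832 bases) to 0.48 in the longest (7725 bases), and lay between -0.05 and 0.02 in every decile after the correction. Across the 41 genes the fold change and log2 length had a Pearson r of 0.655 (Spearman rho 0.602), or 0.384 (0.361) after correction. These points share the same 6 libraries. For the 14 genes under 2500 bases the median was -0.48, with 4 called lower and 1 higher, and the 27 longer ones a median of 0.17, with 1 called lower and 1 higher. The longer gene called lower was Map1lc3b, placed there by its transcript of 2633 bases. After correction the medians were -0.28 and 0.02, with 2 called lower and 0 higher in each class. Of all genes tested, not split by length here, 5.94% were called higher and 5.81% lower, or 3.73% and 4.29% after correction. WT replicate 3 was the lowest of the 6 libraries for 17 of those 27 genes and the highest for 2. Of the 14 shorter genes it was the lowest for 1 and the highest for 6, and of all 13623 genes the lowest for 4547 and the highest for 4290.

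**Figure D4:**
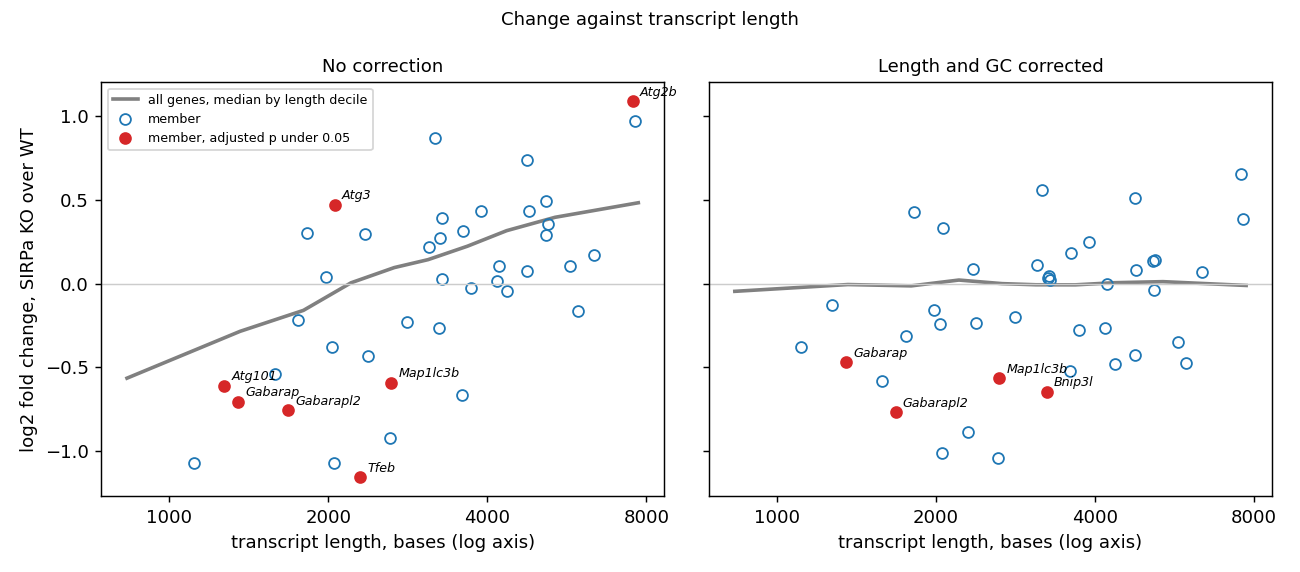
The log2 fold change of each of the 41 genes against transcript length (log axis) without and with the length and GC correction. The grey line is the median of all genes in each length decile, and red points have an adjusted p under 0.05 (edgeR). The line runs from -0.56 to 0.48 on the left and stays near 0 on the right, where Gabarap, Gabarapl2 and Map1lc3b remain low.

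The spread of the members was wider in WT. For 37 of the 41 genes the log2 range over the 3 libraries was larger in WT, as for 10934 of the 13623 genes tested, and the median range was 0.55 in WT and 0.21 in SIRPa KO. Leaving out any 1 SIRPa KO library, or summing the libraries of a shared code (2 against 2), left 0 of the 41 genes called by edgeR. In these fits 10 to 13 of the 41 had an unadjusted p under 0.05, a share given over all genes only for the main fit (32.0%). Calls over all genes went from 1600 to between 10 and 17 in those fits. In the same fits Gabarapl2 ran from -0.74 to -0.80 on the log2 fold change scale, Gabarap from -0.67 to -0.75 and Map1lc3b from -0.56 to -0.62. Without WT replicate 1 the calls of Atg101, Atg2b, Map1lc3b and Tfeb were lost, and without WT replicate 2 those of Atg3 and Tfeb.

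Genes beyond the 41 were read from lists of the same pathway. Of 25 tested other autophagy genes, Tbk1 (log2 fold change 0.61, adjusted p = 0.043, edgeR), a kinase that activates cargo receptors, and Vcp (0.40, adjusted p = 0.041) rose and Wdr45 (-0.63, adjusted p = 0.042) fell. Of 14 fusion genes, Vps41 (0.85, adjusted p = 0.041, edgeR), a HOPS subunit gene, rose, and the SNARE gene Vamp8 (-0.89, adjusted p = 0.019) and Tecpr1 (-0.55, adjusted p = 0.027) fell. Of 49 lysosome genes, 3 rose and 5 fell, among them Psap (-0.59, adjusted p = 0.017, edgeR), the saposin precursor gene, and the proton pump genes Atp6v0e (-0.75, adjusted p = 0.020) and Atp6v1a (0.88, adjusted p = 0.026). Of 16 upstream regulators, Stk11 (-0.74, adjusted p = 0.029, edgeR), the LKB1 gene that activates AMPK, fell. The share called was 12.0% of the other autophagy genes, 21.4% of the fusion genes, 16.3% of the lysosome genes and 6.25% of the upstream regulators, beside 11.7% of all genes. Of the genes named here, Psap, Tecpr1 and Stk11 also passed after length and GC correction, where Vamp8 was at -0.31 (adjusted p = 0.109, edgeR) and Atp6v0e at -0.09 (adjusted p = 0.672). With the correction 2 lysosome genes were called higher, Glb1 (0.43, adjusted p = 0.0274, edgeR) and Gaa (0.48, adjusted p = 0.0301), and 2 lower. The other autophagy genes held 1 higher and 1 lower, the fusion genes 0 and 1, and the upstream regulators 0 and 2. Of all genes, 3.73% were then called higher and 4.29% lower. The median log2 fold changes of these lists were 0.13, 0.33, -0.10 and 0.13, beside -0.03 for all genes tested, and 0.01, 0.10, -0.05 and -0.01 after the correction, beside -0.03.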

How the data were processed

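Bulk RNA-seq libraries of cultured lung ILC2s, 3 WT and 3 SIRPa KO, were grouped by their labels. The authors aligned reads with STAR to mm10 with GENCODE M21 annotation in Partek (10.0 with STAR 2.7.8 in the submitters' processing notes), and deposited estimated counts per gene. The handling of overlapping genes and of strand is not given in the sources used here. Estimated counts were rounded. Genes were filtered with filterByExpr (minimum count 10, total 15) and scaled with TMM factors. The edgeR quasi-likelihood test was used with Benjamini-Hochberg adjustment over 13623 genes (edgeR 4.0.16, limma 3.58.1, DESeq2 1.42.0, R 4.3.3). Standard errors came from its F statistic. Reads per kb used the transcript with the longest coding sequence. The length and GC correction entered, as offsets, splines fitted per library in transcript length and GC content (5 degrees of freedom, 8835 genes). Copies were sought with BLAST+ 2.17.0. The script was tested on simulated data.

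The 41 genes, their roles and the other lists were chosen with earlier results of these data known. Named in every library were genes with an adjusted p under 0.05 and the highest and lowest fold change of each role (21 genes). Sqstm1, Tax1bp1, Bnip3 and Bnip3l were added after their values were seen. Alternatives were other scalings, filters, tools and thresholds, summed codes, the replicate block and each library left out, and, chosen after seeing the data, the correction with summed codes and without WT replicate 3.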

Additional observations from a re-analysis of the deposited data

How the results depend on the processing

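Without correction 2 genes were called higher and 5 lower. RLE factors gave the same counts, and a stricter filter on low counts 2 higher and 7 lower. The count called higher was 7 with DESeq2, 1 with upper quartile factors, 1 with no filter on low counts, 1 with the replicate block, 6 at an adjusted p under 0.1 and 0 with the length and GC correction, with summed codes, with both, or with the correction without WT replicate 3. The count called lower was 8 with DESeq2, 7 with upper quartile factors, 3 with no filter, 3 with the replicate block, 8 at an adjusted p under 0.1, 0 with summed codes, 0 with summed codes and the correction, and 5 with the correction without WT replicate 3 (Map1lc3b, Gabarap, Gabarapl2, Tfeb and Bnip3l). The share of all genes at an adjusted p under 0.1 is not given here, so the counts at that threshold have no background beside them. Leaving out a library gave 0 to 4 higher and 0 to 7 lower, and the median ran from -0.05 to 0.14. The median was -0.16 with the correction, -0.10 with it and summed codes, and -0.20 with it without WT replicate 3. The alternatives combining the correction were chosen after seeing the data. Over all genes tested, edgeR called 1609 of 13623 with RLE factors and 2005 of 11101 with the stricter filter. It called 1151 of 17831 with no filter and 1713 of 13623 with upper quartile factors. Without WT replicate 1, 2 or 3 it called 1111 of 14078, 2309 of 14150 and 2606 of 14143. Without a SIRPa KO library it called 16 or 17. Summed codes gave 10 of 14581, or 28 with the correction. The correction gave 1092 of 13623, or 1537 of 14143 without WT replicate 3. Same-numbered libraries did not pair (correlations of deviations -0.143, 0.191 and 0.0455), and not every library correlated best with its own number, so the block, which called 1118 of all genes in place of 1600, is given here only. Atg101, Atg3 and Tfeb lost their calls with the block and with no filter. Over the alternatives run, the adjusted p of Gabarapl2 went up to 0.132, of Gabarap to 0.132 and of Map1lc3b to 0.138, each log2 fold change staying below 0. Of the genes named, 4 that were not called turned direction in some alternatives. Becn1 was 0.017 with summed codes, ran from -0.15 to 0.14 over the left-out libraries, and was -0.48 with the correction, -0.50 with it and summed codes, and -0.43 with it without WT replicate 3. Nbr1 was -0.13 with the correction without WT replicate 3. Fundc1 was -0.053 with upper quartile factors, -0.16 with the correction, -0.10 with it and summed codes, -0.24 with it without WT replicate 3, and -0.051 to 0.19 over the left-out libraries. Tfe3 was -0.063 with upper quartile factors, -0.10 with the correction without WT replicate 3, and -0.16 to 0.26 over the left-out libraries. The causes were not tested. Low counts limit Wipi1, Optn, Atg4c and Map1lc3a.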
